A study of Rattus norvegicus with 30 samples.

Results

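Primary rat hepatocytes that had been kept in 3000 µM phenobarbital, the higher of the study's doses, were compared between 48 h and 24 h after dosing. The comparison used 5 arrays at 48 h and 5 arrays at 24 h, 10 of the 30 arrays in the series, chosen by the dose and time in the sample labels, with all probe sets except the array's own controls. The cells were purchased as frozen stocks of male Sprague Dawley rat liver and grown on collagen under a Matrigel overlay. Dosing took place on day 3 of culture, and each array held RNA of a single well. The other 20 arrays held wells with 300 µM phenobarbital at 48 h and 24 h and wells with vehicle alone at 48 h and 24 h, 5 wells in each group. Vehicle is called water in the titles and culture medium in another label. The labels describe the 5 wells of a group as separate cultures and number no animals, so the spread is that between wells and says nothing about spread between rats. Well numbers only name the wells.

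Phenobarbital activates the nuclear receptors CAR and PXR, which raise the transcription of drug-metabolizing cytochrome P450 enzymes such as those of the Cyp2b and Cyp3a families. Hepatocytes in culture also lose part of their liver-specific expression with time, and this happens without any chemical. A change between 48 h and 24 h in treated wells can therefore hold both the course of the response and the ageing of the culture, and the vehicle wells show what the culture does alone. In RNA from whole wells, fewer cells of a type and less RNA per cell cannot be told apart.

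Values were probe set signals on a linear scale, taken here as log2. A probe set entered the test if any of its 6 group means was at or above a log2 level of 8.58, the overall median (383 as linear signal), which left 16622 probe sets. The test was limma's moderated test on the 6 group means over all 30 arrays, 2-sided, with Benjamini-Hochberg adjustment, and an adjusted p under 0.05 counts as a change. At 3000 µM, wells at 48 h varied more than wells at 24 h, and in vehicle less: the median SD over the tested probe sets was 0.23 in 3000 µM wells at 48 h and 0.15 in 3000 µM wells at 24 h, against 0.16 in vehicle wells at 48 h and 0.18 in vehicle wells at 24 h. Array 4 at 48 h stood apart. Its 18 hybridization control probe sets, which read transcripts added to the sample, averaged a log2 signal of 14.57, against 12.997 to 13.23 on the other 4 arrays at 48 h, and its mean correlation with its own group was 0.954, against 0.965 to 0.969. In the vehicle wells at 24 h, array 1 stood apart in the same controls, at 14.14 against 13.27 to 13.32. Results without array 4 at 48 h are given for part of the genes and lists that it changed. The counts of differences from vehicle without each of these arrays are given at the end.

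At 48 h, 2317 of 16622 probe sets (13.9%) had changed against 24 h in the 3000 µM wells, 1067 upward and 1250 downward, and 54 of the rises and 51 of the falls were at least 2-fold. Scaling the arrays to equal medians moved the split: 23.1% of the changed probe sets were then higher, against 46.1% as deposited. With 1 probe set per gene, 736 of 9841 genes (7.48%) rose and 847 (8.61%) fell. In the vehicle wells 1196 probe sets (7.2%) changed over the same interval, with 418 genes (4.25%) higher and 404 (4.11%) lower. These shares over all genes are the background for the counts of list members below. Of the probe sets changed at 3000 µM, 510 had also changed in vehicle, which is 22% of those changed at 3000 µM and 42.6% of those changed in vehicle, and 480 of the 510 moved in the same direction. All 5 wells at 48 h lay on 1 side of all 5 wells at 24 h for 1498 probe sets (9.01%). Without array 4 at 48 h, 2119 probe sets changed, of which 1757 were among the 2317. With the spread estimated from the compared groups alone, 1186 changed.

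The 15 largest rises and the 15 largest falls were taken among named genes that passed the test and whose wells at 48 h and 24 h did not overlap. For these genes the lack of overlap was a condition of selection and no further support. The largest rises began from signals near or below the level used for testing. Of the 15, 10 had a mean below that level at 24 h, and their size is therefore imprecise. Igsf23, an immunoglobulin superfamily gene, had log2 signals of 9.62, 9.29, 9.55, 10.08 and 9.43 at 48 h, against 5.43, 5.79, 8.08, 6.30 and 8.43 at 24 h. The rise was 2.79 ± 0.75 (SE) on the log2 scale with a limma adjusted p of 0.0104. Its means at 24 h (6.81) and in vehicle (5.89 at 48 h, 4.82 at 24 h) lay below that level. Cox6a2, a subunit of cytochrome c oxidase known mainly from muscle and heart, rose by 2.48 ± 0.43 (SE). Naaa, a lysosomal amidase that breaks down N-acylethanolamines, rose by 2.10 ± 0.51 (SE). Tjp3 (tight junctions), Renbp (a renin-binding protein and sugar epimerase), Igfbp3 (a carrier of insulin-like growth factors) and Cpne9 (a copine) rose from below that level by 1.49 to 1.78. Tmem14a, Gng2 and Ttc38 also belonged to the 15, with log2 rises of 2.05, 1.46 and 1.46, but each lost its call when single wells were left out, with adjusted p up to 0.0551, 0.0507 and 0.108. For Tmem14a these were well 3 at 48 h and wells 1 and 2 at 24 h, for Gng2 well 4 at 24 h, and for Ttc38 wells 2 and 4 at 48 h and wells 1, 2 and 4 at 24 h.

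Well-expressed genes were also among the largest rises. Sfn, which encodes the 14-3-3 sigma protein and is known as a p53 target, had log2 signals of 12.98, 12.84, 13.13, 12.69 and 13.22 at 48 h, against 11.37, 11.15, 11.07, 11.22 and 11.27 at 24 h. Sfn rose by 1.76 ± 0.12 (SE), or 3.38-fold, with a limma adjusted p of 4.49e-12. Rsad2, the interferon-inducible antiviral enzyme viperin, had 12.96, 13.01, 12.88, 12.61 and 13.27 at 48 h, against 11.12, 11.47, 11.12, 11.03 and 10.88 at 24 h. It rose by 1.82 ± 0.19 (SE), or 3.53-fold (limma adjusted p = 3.69e-08). Both genes also rose in vehicle wells, by 0.59 (Sfn) and 0.85 (Rsad2) on the log2 scale. Ndrg1, a gene induced by hypoxia and cell stress, rose by 1.42 at 3000 µM and by 1.14 in vehicle, and Rragd, a GTPase of the mTORC1 nutrient-sensing pathway, rose by 1.39 and by 0.86. Tmsb15b2, a thymosin beta gene, rose by 1.33 and by 0.74. In 7 of the 15 largest rises the vehicle wells had a rise of their own, and in 2 of them, Sfn and Rsad2, the difference between the 3000 µM and vehicle time changes passed its test.

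**Figure D1:**
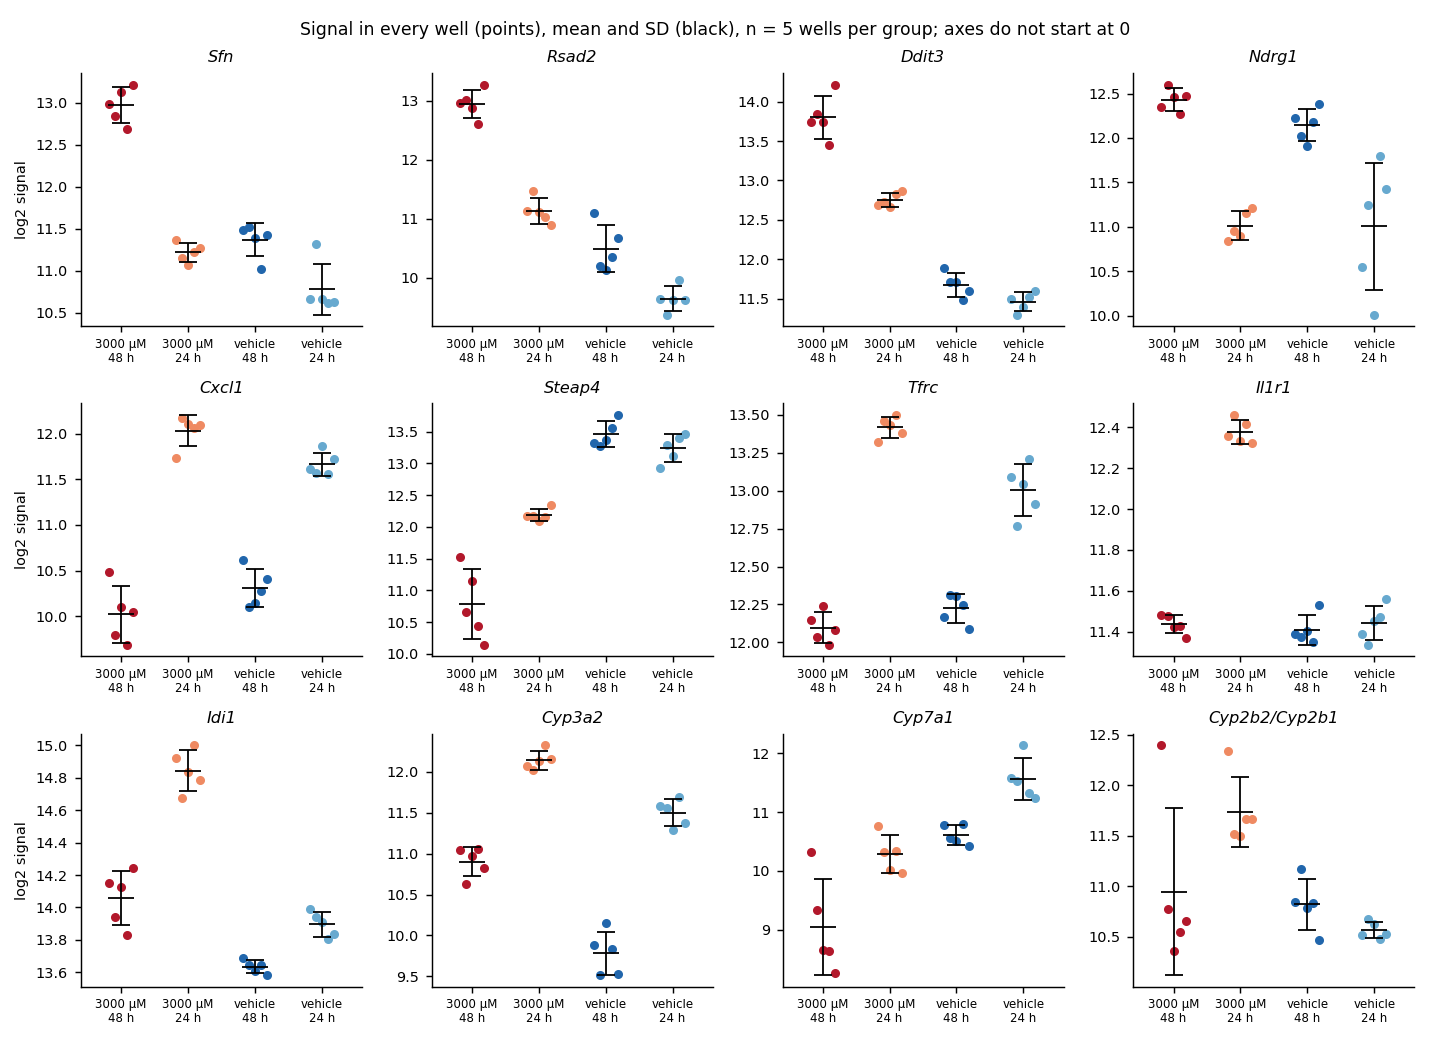
Log2 signal in every well (points) of 12 genes in 3000 µM wells at 48 h and 24 h and in vehicle wells at 48 h and 24 h, with the mean and SD of 5 wells in black. Sfn, Rsad2 and Ddit3 are highest in the 3000 µM wells at 48 h, Il1r1 stands at the vehicle level at 48 h and above it at 24 h, and the probe set shared by Cyp2b2 and Cyp2b1 has 1 well far above the others at each time.

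Among the largest falls were genes of inflammation, iron metabolism and drug metabolism. Nfe2, a transcription factor known from erythroid cells, had log2 signals of 5.90, 4.63, 5.74, 4.43 and 6.30 at 48 h, against 9.01, 8.70, 8.97, 8.61 and 8.37 at 24 h. Nfe2 fell by 3.33 ± 0.51 (SE) on the log2 scale and ended below the level used for testing, so that the size is imprecise (limma adjusted p = 1.91e-05). Cxcl1, a chemokine that attracts neutrophils, had 10.49, 9.79, 10.10, 9.69 and 10.04 at 48 h, against 11.73, 12.17, 12.10, 12.06 and 12.10 at 24 h, a 4.03-fold fall. In vehicle wells Cxcl1 fell too, by 1.35 on the log2 scale, and the difference between the time changes did not pass (limma adjusted p = 0.107). Steap4, a metalloreductase of iron and copper handling that is also induced in inflammation, had 11.52, 10.66, 11.15, 10.44 and 10.14 at 48 h, against 12.16, 12.17, 12.09, 12.16 and 12.35 at 24 h. It fell by 1.41 ± 0.16 (SE) at 3000 µM, whereas its vehicle change was 0.22 and did not pass. Tfrc, the transferrin receptor, fell by 1.32 ± 0.09 (SE) on one probe set and by 0.93 ± 0.07 (SE) on another, and in vehicle the same probe sets fell by 0.78 and 0.70.

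The other largest falls were mostly shared with the vehicle wells. Rup2, which encodes a small secreted protein, fell by 1.66, Dhrs7l1 (a short-chain dehydrogenase) by 1.38, Cyp2c13 by 1.26, the sulfotransferase Sult2a6 by 1.24, Cyp3a2 by 1.24 and the protease inhibitor Serpina3c by 1.24 on the log2 scale. Car3 (carbonic anhydrase 3), Fcgr2b (an immunoglobulin receptor), Mup5 (a major urinary protein), Cyp1a2 and Serpina6 (the corticosteroid carrier of plasma) fell by 1.22, 1.17, 1.16, 1.12 and 1.10. Dhrs7l1, Fcgr2b and Mup5 had means below the level used for testing at 48 h (8.35, 8.46 and 7.99), so that the sizes of their falls are imprecise. In vehicle, 12 of the 15 largest falls also fell. The difference of the time changes passed for 4, negative for Nfe2, Steap4 and 1 of the 2 Tfrc probe sets (-0.23 on the other did not pass) and positive for Serpina3c, which fell by 1.81 in vehicle and lost this call in 18 of 31 other settings. Rat Cyp2c, Cyp3a, Sult and Mup genes have close paralogs, and a probe set can read more than 1 of them.

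Genes of cholesterol synthesis fell together. The enzymes of this pathway convert acetyl-CoA through mevalonate and squalene to cholesterol, and the transcription factor SREBP2 raises most of them when sterols are scarce. Of 23 tested members, 16 fell and none rose, with a median log2 change of -0.35. The same list had 8 falls and no rise in vehicle, with a median of -0.14. Among all 9841 genes 8.61% fell at 3000 µM and 4.11% in vehicle. The falls reached along the whole route: Mvk, Pmvk and Mvd of the mevalonate branch fell by 0.44, 0.48 and 0.76, and Idi1 and Fdps, which make and join the isoprene units, by 0.79 and 0.28. Fdft1, Sqle and Lss, which form squalene and close the sterol ring, fell by 0.55, 0.65 and 0.46. Among the later steps Msmo1, Hsd17b7, Nsdhl, Cyp51 and Dhcr7 fell by 0.70, 0.77, 0.39, 0.35 and 0.31.

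Idi1 had log2 signals of 14.15, 13.94, 14.13, 13.83 and 14.24 at 48 h, against 14.92, 14.68, 14.84, 15.002 and 14.79 at 24 h. All wells at 48 h were below all wells at 24 h (limma adjusted p = 6.32e-10). Its vehicle wells had 13.69, 13.65, 13.61, 13.64 and 13.58 at 48 h and 13.99, 13.94, 13.91, 13.80 and 13.84 at 24 h. The 3000 µM wells were thus above vehicle at both times, by 0.42 at 48 h and by 0.95 at 24 h on the log2 scale. Msmo1 likewise stood 0.86 above vehicle at 48 h and 1.21 above it at 24 h. Hsd17b7 differed in this: its 3000 µM wells were 0.52 below vehicle at 48 h (limma adjusted p = 3.5e-05), while the difference of 0.14 at 24 h did not pass. For 7 members, Idi1, Hsd17b7, Mvd, Sqle, Stard4, Lss and Nsdhl, the time change at 3000 µM was more negative than that in vehicle, by 0.52, 0.66, 0.59, 0.53, 0.47, 0.58 and 0.24, and no member passed in the other direction. The call of Mvd was lost in 10 of 31 other settings.

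The regions around the transcription start of the 3 members with the largest falls and a RefSeq window (300 bases, most of them upstream of the start, assembly GRCr8, printed 5′ to 3′ on the gene's own strand) are shown because these genes moved together, with CCAAT on either strand in capitals. Idi1 lies at chr17:66547475-66547774, Hsd17b7 at chr13:84722705-84723004 and Mvd at chr19:67414925-67415224, all on the minus strand.
Idi1: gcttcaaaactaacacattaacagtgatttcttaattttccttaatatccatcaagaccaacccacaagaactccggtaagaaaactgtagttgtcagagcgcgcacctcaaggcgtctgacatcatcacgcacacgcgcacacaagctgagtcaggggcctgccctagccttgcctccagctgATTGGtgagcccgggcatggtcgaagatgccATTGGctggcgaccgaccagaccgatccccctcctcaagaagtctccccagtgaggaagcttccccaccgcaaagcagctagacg
Hsd17b7: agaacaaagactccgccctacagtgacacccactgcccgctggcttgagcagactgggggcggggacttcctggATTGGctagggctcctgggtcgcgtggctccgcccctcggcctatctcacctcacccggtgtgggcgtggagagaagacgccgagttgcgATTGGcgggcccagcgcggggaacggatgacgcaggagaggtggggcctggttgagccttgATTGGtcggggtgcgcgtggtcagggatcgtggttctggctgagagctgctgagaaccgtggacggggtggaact
Mvd: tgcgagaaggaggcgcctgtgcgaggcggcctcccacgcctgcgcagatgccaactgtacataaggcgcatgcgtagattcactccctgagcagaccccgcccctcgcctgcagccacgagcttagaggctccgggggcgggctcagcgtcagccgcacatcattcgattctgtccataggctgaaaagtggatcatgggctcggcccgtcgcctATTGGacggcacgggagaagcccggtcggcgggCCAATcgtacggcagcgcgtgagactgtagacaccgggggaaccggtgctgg
CCAAT, the motif read by the factor NF-Y, was present on at least 1 strand in 15 of the 19 tested members that had a window, against 37.7% of all 27457 windows of the same length. Of the 12 changed members with a window, 10 had a match, so members that did not change carried CCAAT as well. TCACNCCAC, a form of the sterol response element, was in none of the 19 and in 1.13% of all windows. Both strands were searched, and with no match of TCACNCCAC the motifs did not overlap here. A match describes letters only, and its absence says nothing beyond this window.

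**Figure D2:**
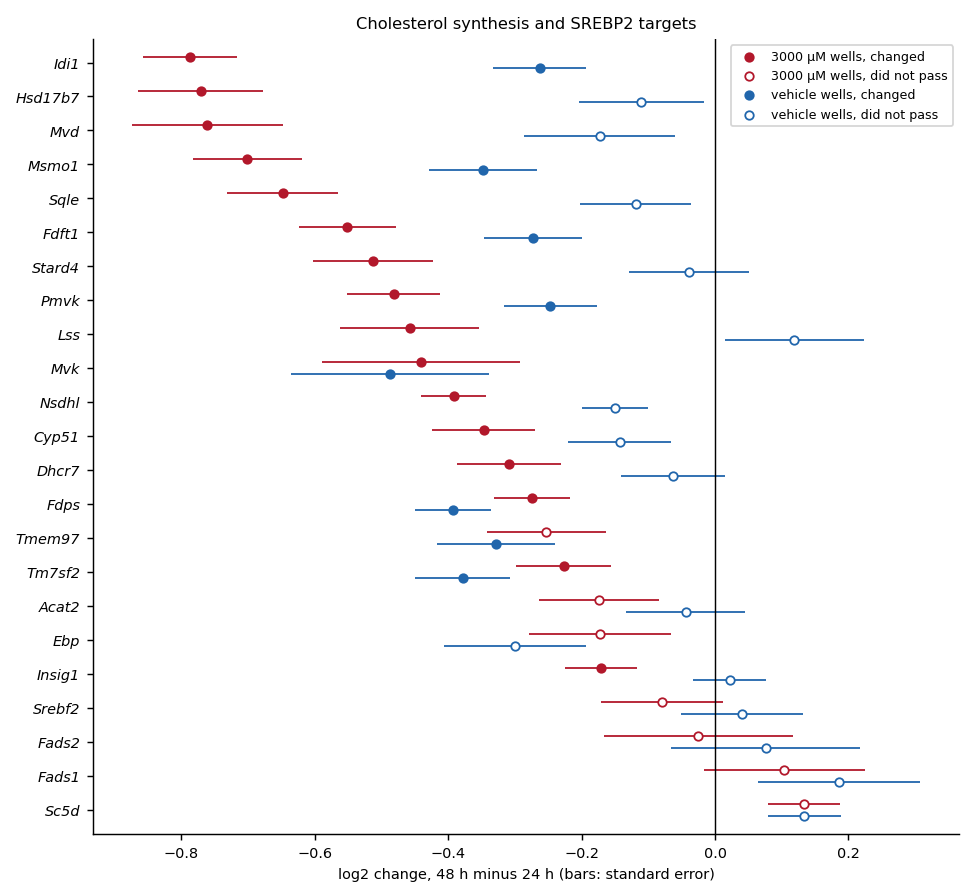
Log2 change between 48 h and 24 h of the 23 tested members of the cholesterol synthesis list, in 3000 µM wells (red) and vehicle wells (blue), with standard errors. Filled points passed the test. In the 3000 µM wells 16 members fell, and in vehicle wells 8.

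Related lipid genes moved less uniformly. Among lipogenesis genes, 6 of 22 fell and 1 rose, against 1 fall and 2 rises in vehicle. Beside this count and those that follow, 7.48% of all 9841 genes rose and 8.61% fell at 3000 µM. Elovl6, a fatty acid elongase, fell by 0.41, and Dgat1, which makes triglyceride, rose by 0.32, a call lost without well 1 at 24 h and with arrays scaled to equal medians (limma adjusted p up to 0.112). Among PPARalpha targets and fatty acid oxidation genes 5 of 33 rose and 5 fell, and with equal array medians 2 rose and 6 fell. Pdk4, the kinase that closes pyruvate dehydrogenase, had log2 signals of 11.68, 11.65, 11.87, 11.67 and 11.39 at 48 h, against 10.83, 10.75, 10.89, 11.11 and 11.13 at 24 h. It rose by 0.71 ± 0.08 (SE) without overlap, and by 0.29 in vehicle. Fabp1, the fatty acid carrier of liver, fell by 0.71. In bile acid synthesis 8 of 16 members fell and 1, Hsd3b7, rose by 0.14, a call lost with equal array medians, with quantile normalization and without array 4 at 48 h. Cyp7a1, the rate-limiting enzyme, had 10.32, 9.34, 8.65, 8.64 and 8.26 at 48 h, against 10.77, 10.32, 10.02, 10.34 and 9.96 at 24 h. Well 1 at 48 h overlapped the wells at 24 h, and the fall was 1.24 ± 0.25 (SE) (limma adjusted p = 0.000651), beside a fall of 0.95 in vehicle. Baat, which conjugates bile acids, fell by 0.93, the 5β-reductase Akr1d1 by 0.74 and the bile acid ligase Slc27a5 by 0.60.

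Drug-metabolizing enzymes fell in part. Of 18 phase I targets of CAR and PXR, 10 fell and none rose, with a median of -0.33, and in vehicle 11 fell and none rose, with a median of -0.34. The share of all 9841 genes that fell was 8.61% at 3000 µM and 4.11% in vehicle. Cyp2c13, Cyp3a2, Cyp2a2, Cyp3a9 and Cyp2c7 fell by 1.26, 1.24, 1.07, 0.79 and 0.77. Cyp2c12 fell by 0.81 at 3000 µM, while its vehicle change was -0.01 (limma adjusted p of the difference, 0.0362, lost in 13 of 31 other settings). Cyp3a2 stood above vehicle at both times, by 1.12 at 48 h and by 0.64 at 24 h. Cyp2c6v1 stood further above vehicle, by 1.725 at 48 h and by 1.68 at 24 h. It fell by 0.23 with overlapping wells (limma adjusted p = 0.00538), and by 0.27 in vehicle. With the spread estimated from the compared groups alone its call at 3000 µM was lost (limma adjusted p = 0.0896). Cyp3a23-3a1 had 16.21, 16.22, 16.23, 17.14 and 16.11 at 48 h, against 16.23, 16.26, 16.25, 16.39 and 16.23 at 24 h, and did not pass (limma adjusted p = 0.576); array 4 was the high one at 48 h, and without it the change was -0.08 and did not pass. Nr1i3, the gene of CAR itself, had a change of -0.26 that did not pass (limma adjusted p = 0.365), while without well 1 at 48 h it was -0.46 and passed.

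The probe set that carries the symbols of both Cyp2b2 and Cyp2b1, the classical phenobarbital-induced P450 genes of the rat, had log2 signals of 12.40, 10.78, 10.36, 10.55 and 10.65 at 48 h, against 12.34, 11.52, 11.50, 11.67 and 11.67 at 24 h. The well numbered 1 was high at each time, and the other 4 wells at 48 h lay below all wells at 24 h. The fall of 0.79 ± 0.23 (SE) had an adjusted p of 0.0181 in limma. It was 1.15 without well 1 at 48 h, and the call was lost without well 3 at 48 h, well 4 at 48 h or well 1 at 24 h, with changes of -0.64, -0.69 and -0.64. Against vehicle, the 3000 µM wells were 1.17 higher at 24 h (limma adjusted p = 0.000166), and the difference of 0.13 at 48 h did not pass.

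Phase II enzymes moved both ways, with 5 rises and 7 falls among 28. Sult1c2 rose by 0.68 and Gstk1, a glutathione transferase, by 0.37, while the estrogen sulfotransferase Sult1e1 fell by 0.89. Scaled to equal medians, the arrays gave 2 rises and 7 falls. Among 18 transporters 2 rose and 5 fell: the organic anion carrier Slco1a4 and the bile acid importer Slc10a1 fell by 1.10 and 0.75, and the efflux pump Abcb1a rose by 0.46. Male-predominant and growth hormone dependent genes had 11 falls and 1 rise among 19, with a median of -0.38, against 7 falls in vehicle. The rise was that of Igfbp3, and Cyp2c12 on the same list is known in rats as female-predominant. Ghr, the growth hormone receptor, fell by 0.26 and Igf1 by 0.38. Cyp2e1 and Cyp1a2 of the pericentral list, in which 5 of 14 fell and 1 rose, fell by 0.93 and 1.12, and in vehicle Cyp2e1 fell by 1.22 and Cyp1a2 changed by -1.254. In the periportal list 4 of 16 fell and 1 rose, in the Nrf2 list 3 of 25 rose and 3 fell, and in the AhR list 2 of 6 fell. With equal array medians the Nrf2 list had no rise and 2 falls, and without array 4 at 48 h the AhR list had 1 rise and 3 falls. The shares over all 9841 genes were 7.48% higher and 8.61% lower.

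Acute phase and complement genes fell in the 3000 µM wells. Of 34 tested, 15 fell and 1 rose, with a median of -0.23, against 8 falls and 3 rises in vehicle. Of all 9841 genes 8.61% fell and 7.48% rose at 3000 µM, against 4.11% and 4.25% in vehicle. For 10 of them the time change at 3000 µM was more negative than in vehicle, and for 1, Lcn2, it was more positive. The background for such differences was 278 of 9841 genes (2.82%) in the negative direction and 165 (1.68%) in the positive. Il1r1, the interleukin 1 receptor, had log2 signals of 11.48, 11.48, 11.43, 11.43 and 11.37 at 48 h, against 12.36, 12.46, 12.33, 12.41 and 12.32 at 24 h. It fell by 0.94 ± 0.07 (SE) with no overlap (limma adjusted p = 1.23e-11), and the vehicle change was -0.03. In vehicle it had 11.39, 11.37, 11.40, 11.35 and 11.53 at 48 h and 11.39, 11.34, 11.46, 11.47 and 11.56 at 24 h. Another 2 probe sets of Il1r1 had changes of -0.21 and -0.19 that did not pass. The 3000 µM wells of the first probe set stood 0.94 above vehicle at 24 h, and the difference of 0.03 at 48 h did not pass. Of the complement genes C4bpb, C9, C8g, C5 and C8b fell by 0.98, 0.83, 0.69, 0.63 and 0.48. Serpina3n, ceruloplasmin (Cp) and the fibrinogen chain Fga fell by 0.67, 0.51 and 0.48, while Hp (haptoglobin) and Orm1 had changes of 0.11 and 0.23 that did not pass. Hamp, the iron hormone hepcidin, had a change of -0.32 that did not pass, against a rise of 0.70 in vehicle, and the difference of -1.02 passed.

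Other secreted and metabolic liver genes showed falls in part of their members. Of 45 genes of secreted proteins 18 fell and 1, Igfbp1, rose by 0.26, a call lost with equal array medians and without array 4. Lcat, which esterifies cholesterol in plasma, had 11.23, 10.98, 11.03, 11.21 and 10.93 at 48 h, against 12.11, 11.89, 11.91, 11.95 and 12.14 at 24 h, a fall of 0.92 ± 0.06 (SE) without overlap. Apoa2 and Plg (plasminogen) fell by 0.66 and 0.65. Alb, the gene of albumin, had 16.61, 16.45, 16.30, 17.51 and 16.31 at 48 h, against 16.32, 16.47, 16.22, 16.55 and 16.30 at 24 h, and did not pass (limma adjusted p = 0.277), with a change of 0.26, and of 0.05 without array 4. Of 44 genes of the urea cycle and amino acid breakdown 15 fell and 2 rose. Otc of the urea cycle fell by 0.58, Bhmt and Gnmt of methionine metabolism by 1.04 and 0.63, and Cdo1, which oxidizes cysteine, rose by 0.35. Of 26 methionine, choline and one-carbon genes 10 fell and 1, Mat2b, rose. Among all 9841 genes the shares were 8.61% lower and 7.48% higher.

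Among 34 transcription factors and nuclear receptors of hepatocyte identity 9 fell and none rose, against 1 fall and 3 rises in vehicle. The shares of all 9841 genes were 8.61% lower and 7.48% higher at 3000 µM, and 4.11% and 4.25% in vehicle. Cebpa, Hnf4a, Prox1 and Nr2f2 fell by 0.52, 0.41, 0.43 and 0.52. Nr3c1, the glucocorticoid receptor, fell by 0.28 and rose by 0.21 in vehicle. Onecut2 fell by 0.28 and rose by 0.36 in vehicle, and for Onecut1 a change of -0.15 that did not pass stood beside a rise of 0.71 in vehicle. The differences of the time changes for these 3 genes, -0.50, -0.65 and -0.87, passed the test.

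**Figure D3:**
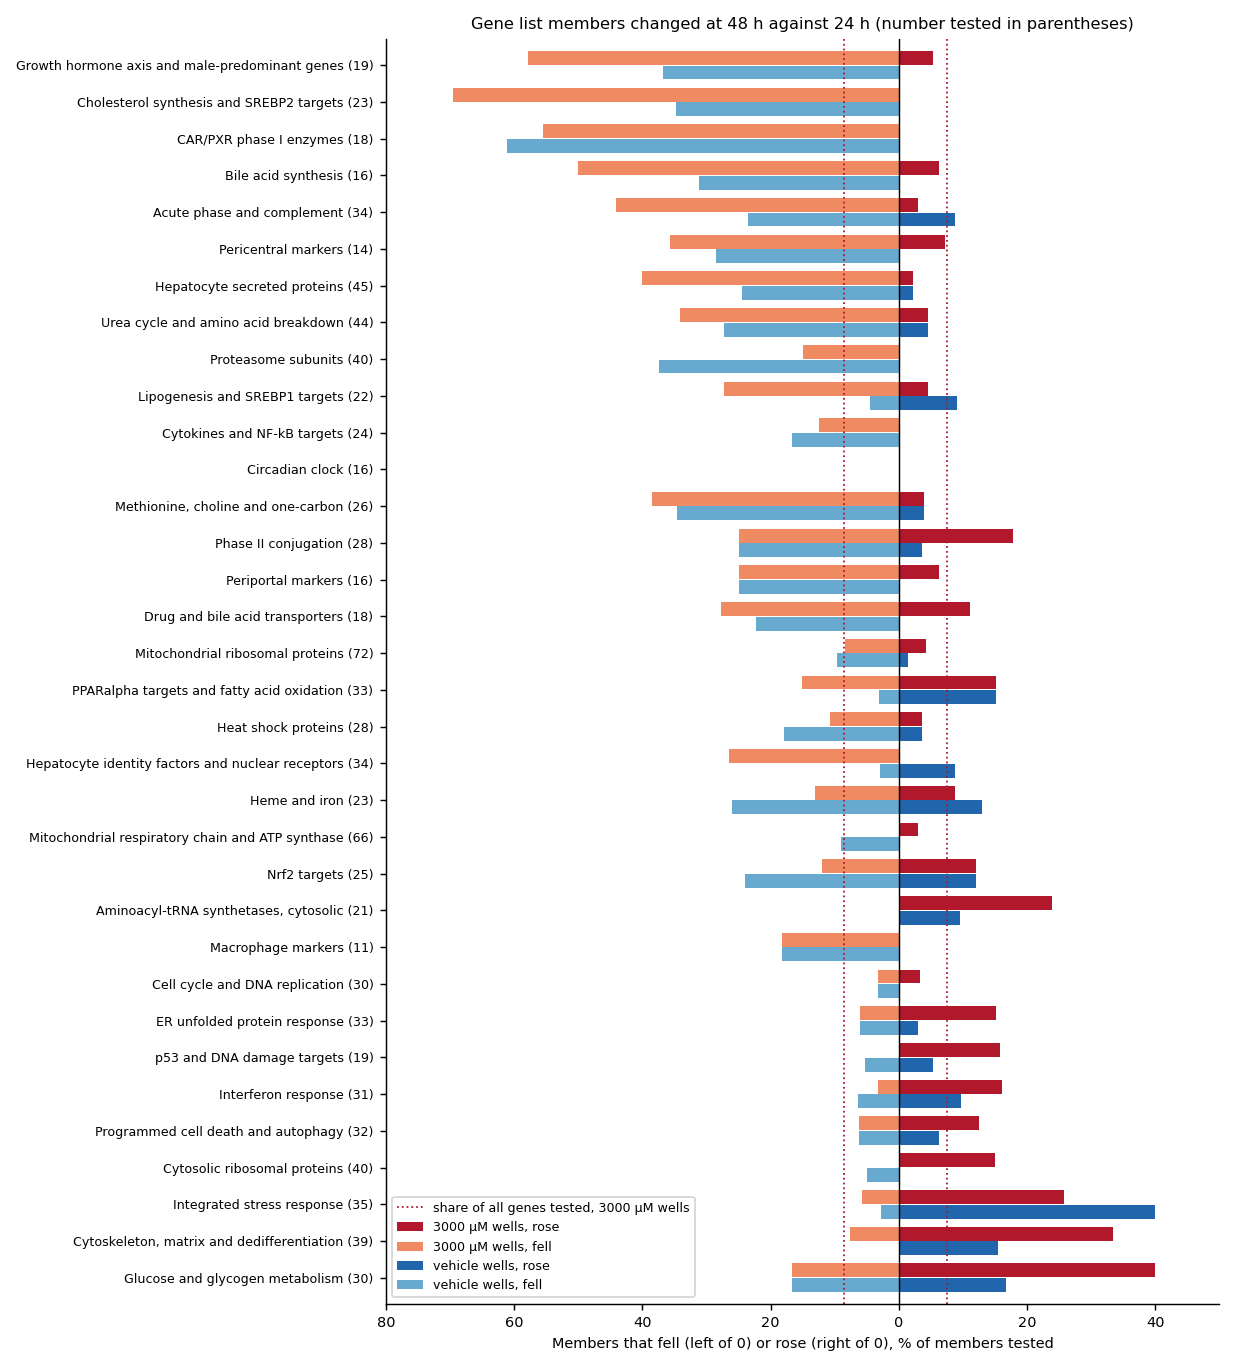
Share of the tested members of each gene list that rose or fell between 48 h and 24 h, for the 34 lists with at least 10 tested members, with 3000 µM wells above vehicle wells in each row. Dotted lines mark the shares over all 9841 genes in the 3000 µM wells, 7.48% higher and 8.61% lower. Lists are ordered by their median change in the 3000 µM wells.

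Stress genes rose in part. The integrated stress response is the program in which phosphorylation of eIF2alpha and the factor ATF4 raise genes of amino acid supply and, under lasting stress, Ddit3 (CHOP). Of 35 members 9 rose and 2 fell, with a median of 0.16, and in vehicle 14 rose and 1 fell, with a median of 0.24. Among all 9841 genes 7.48% rose at 3000 µM and 4.25% in vehicle. With equal array medians 6 members rose and 3 fell at 3000 µM, with a median of 0.08. Quantile normalization gave 11 rises and 1 fall, and leaving out array 4 at 48 h gave 10 and 3. Ddit3 had log2 signals of 13.74, 13.85, 13.74, 13.45 and 14.21 at 48 h, against 12.69, 12.73, 12.66, 12.82 and 12.86 at 24 h. The rise of 1.05 ± 0.09 (SE), or 2.07-fold, had no overlap (limma adjusted p = 3.23e-10), and the vehicle change of 0.22 did not pass. Ppp1r15a (GADD34), which restores translation, rose by 0.72, Sesn2 by 0.64 and Atf3 by 0.53, and Atf3 rose by 0.45 in vehicle as well.

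The list did not move as 1 block. For 2 members, Ddit3 and Ppp1r15a, the time change at 3000 µM was more positive than in vehicle, by 0.83 and 0.56, and the call of Ppp1r15a was lost in 8 of 31 other settings. For 7 members it was more negative: Ddit4, Slc38a2, Slc7a1, Slc7a11, Gpt2, Psph and Cebpg, by -0.61, -0.48, -0.48, -0.46, -0.42, -0.41 and -0.37. Slc38a2, Slc7a1 and Slc7a11 are amino acid transporters and Psph makes serine, and these 4 genes rose in vehicle, by 0.31, 0.36, 0.68 and 0.44, while their changes at 3000 µM did not pass. Of 21 cytosolic aminoacyl-tRNA synthetases 5 rose and none fell, led by Wars1 (0.53) and Sars1 (0.46), beside 7.48% higher and 8.61% lower over all genes. With arrays scaled to equal medians 2 rises were counted, and the list's median was -0.06 in place of 0.02.

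**Figure D4:**
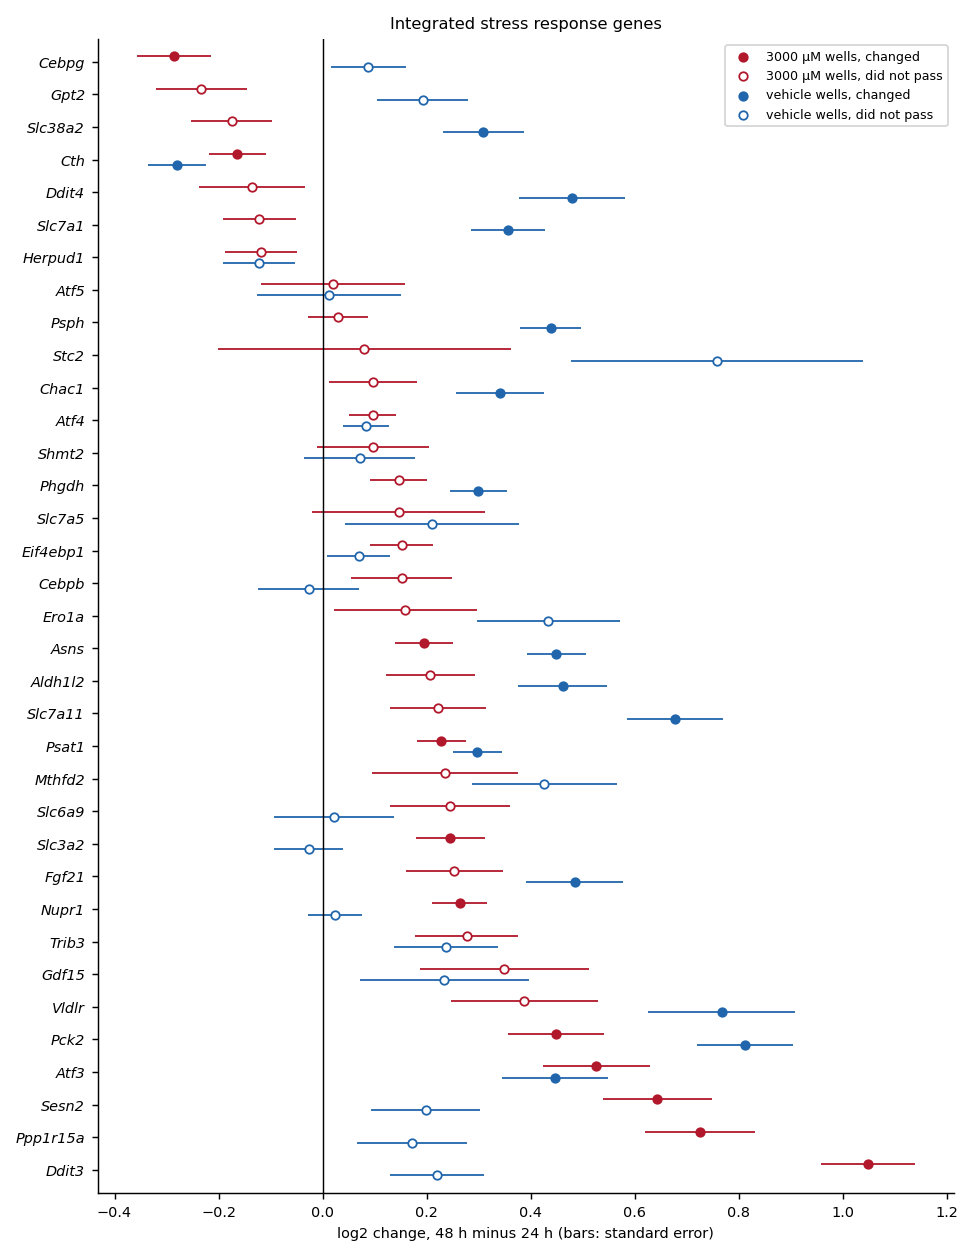
Log2 change between 48 h and 24 h of the 35 tested integrated stress response genes in 3000 µM wells (red) and vehicle wells (blue), with standard errors. Filled points passed the test. Ddit3 and Ppp1r15a lie further right in 3000 µM wells, and Ddit4, Slc7a1 and Slc7a11 further right in vehicle wells.

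In the endoplasmic reticulum unfolded protein response 5 of 33 genes rose and 2 fell, and with equal array medians 2 rose and 3 fell, with quantile normalization 8 and 2. Sdf2l1, a chaperone component of the reticulum, had 12.60, 12.93, 12.87, 12.85 and 12.85 at 48 h, against 12.23, 12.26, 12.29, 12.18 and 12.21 at 24 h, and rose by 0.59 ± 0.07 (SE) with no overlap. Its vehicle change was below 0.01 in size, and the difference passed (limma adjusted p = 0.000613). Calr rose by 0.60, with array 4 at 14.81 against 13.59 to 13.93 on the other arrays at 48 h and a rise of 0.39 without it, and Edem1 and Xbp1 fell by 0.38 and 0.20. Of 19 p53 and DNA damage targets 3 rose, Sesn2, Ccng1 (0.32) and Plk2 (0.27), and none fell. In the interferon list 5 of 31 rose and 1 fell, with Gbp2 (0.76) and Psmb8 (0.32) next to Rsad2. With equal array medians 2 of the 31 rose and 2 fell, and Plk2 and Psmb8 lost their calls. Of 28 heat shock genes 1 rose and 3 fell, of 24 cytokine and NF-kB genes 3 fell, and of 32 cell death and autophagy genes 4 rose and 2 fell, including rises of the lysosomal genes Ctsd (0.54) and Lamp1 (0.34). With equal array medians 5 of the cytokine genes fell, and 2 of the cell death genes rose and 2 fell. Over all 9841 genes 7.48% rose and 8.61% fell. The counts of the heat shock, cytokine and cell death lists were not far from these shares.

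Many genes of glycolysis and the cytoskeleton rose. Of 30 genes of glucose and glycogen metabolism 12 rose and 5 fell, with a median of 0.17, against 5 rises and 5 falls in vehicle. Among all 9841 genes 7.48% rose and 8.61% fell at 3000 µM, against 4.25% and 4.11% in vehicle. Pfkp, a phosphofructokinase, had 11.90, 11.56, 11.94, 11.44 and 11.37 at 48 h, against 10.81, 10.79, 10.54, 10.84 and 10.88 at 24 h, and rose by 0.87 ± 0.15 (SE). Pfkfb3, which makes the activator of phosphofructokinase, the glucose transporter Slc2a1, Ldhb and Pdk1 rose by 0.94, 0.41, 0.55 and 0.38. The liver enzymes Khk (fructose use), Pklr, Slc37a4 and Fbp1 (glucose output) fell by 0.70, 0.63, 0.47 and 0.45. Pfkl was called as well, with a rise of 0.72, but array 4 read 12.06 against 9.98 to 10.20 on the other 4 arrays at 48 h, the rise was 0.33 without it, and the call was lost without well 2, 3, 4 or 5 at 24 h. Pfkp, Pfkfb3, Slc2a1 and Ldhb rose in vehicle also, by 1.09, 0.68, 0.61 and 0.70. By limma no member of the list had a time change that differed from vehicle, with 10 of 30 at an unadjusted p under 0.05.

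Of 39 cytoskeleton, matrix and dedifferentiation genes 13 rose and 3 fell, against 6 rises and no fall in vehicle. The same shares over all genes, 7.48% higher and 8.61% lower at 3000 µM and 4.25% and 4.11% in vehicle, are the background here. Flna (filamin A) had 10.54, 10.69, 10.60, 11.20 and 10.49 at 48 h, against 10.11, 9.89, 9.76, 9.21 and 10.17 at 24 h, and rose by 0.88 ± 0.16 (SE). The annexins Anxa5, Anxa3 and Anxa2, the caveolin Cav1 and the galectin Lgals3 rose by 0.52, 0.43, 0.32, 0.52 and 0.36. Ccn2, a matricellular growth factor, and S100a6 fell by 0.53 and 0.49. With equal array medians 6 members of this list and 6 of the glucose list rose, and without array 4 at 48 h 10 and 8.

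The ribosomal lists depended on array 4 at 48 h. Cytosolic ribosomal proteins had 6 rises among 40, but array 4 had a list mean of 15.80 against 15.48 to 15.52 on the other arrays at 48 h and 15.39 to 15.48 at 24 h, and without it 1 gene rose. With arrays scaled to equal medians none of the 40 passed. Mitochondrial ribosomal proteins had 3 rises and 6 falls among 72, and array 4 was the low one there, with a list mean of 12.67 against 12.92 to 12.96. Without array 4 there were 5 rises and 3 falls, and the list's median was 0.01 in place of -0.03, while equal array medians gave 1 rise and 7 falls. In the respiratory chain and ATP synthase 2 of 66 rose, Atp5f1a (0.21) and Ndufa6 (0.14), and array 4 read a list mean of 14.24 against 14.37 to 14.44. With arrays scaled to equal medians none of the 66 rose and 1 fell, without array 4 at 48 h 4 rose, and with quantile normalization 6. Of 40 proteasome genes 6 fell and none rose, against 15 falls in vehicle. Shares over all 9841 genes were 7.48% higher and 8.61% lower at 3000 µM, and 4.25% and 4.11% in vehicle. As deposited, the counts of the mitochondrial ribosomal and respiratory chain lists at 3000 µM did not exceed these shares.

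**Figure D5:**
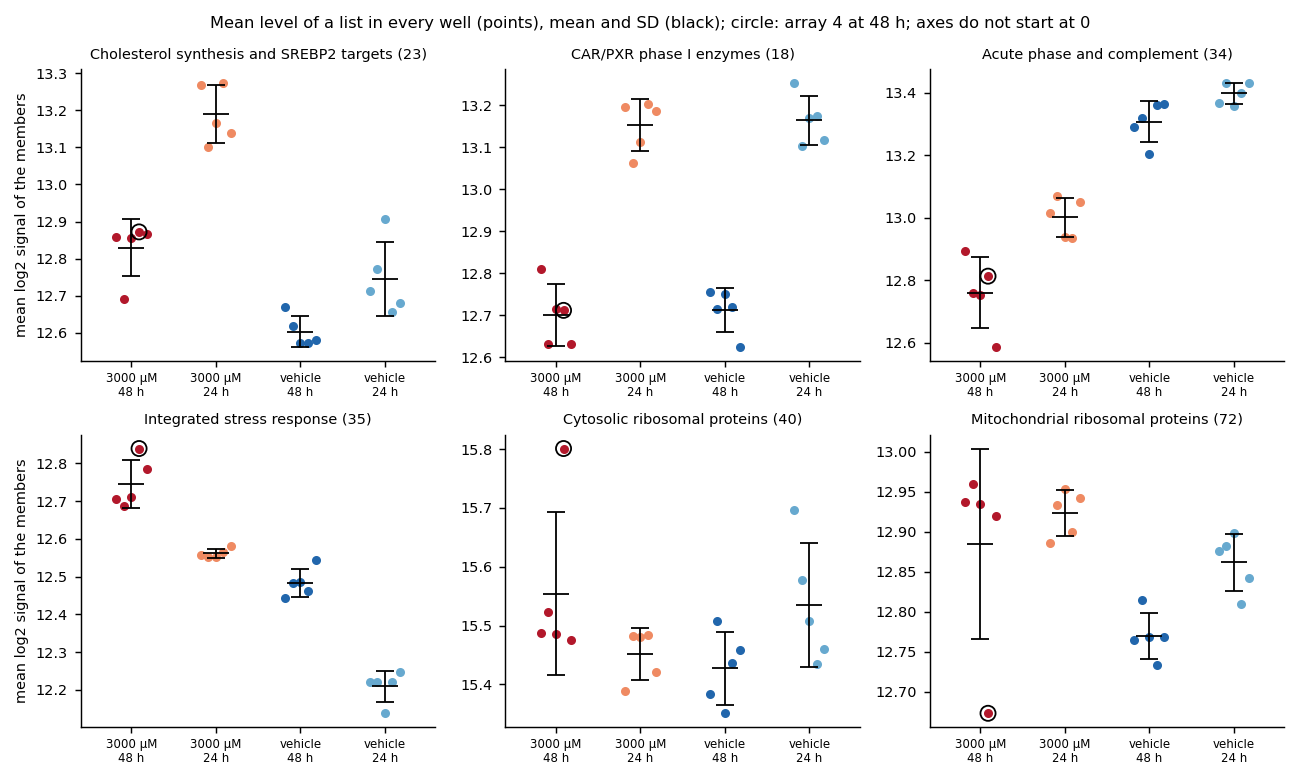
Mean log2 signal of 6 gene lists in every well (points), with the mean and SD of 5 wells in black; the circle marks array 4 at 48 h. Cholesterol synthesis and CAR/PXR enzymes are lower in all 5 wells at 48 h than in all 5 at 24 h at 3000 µM, and array 4 leaves its group in both ribosomal panels.

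Other lists held few changes, beside shares of 7.48% higher and 8.61% lower over all 9841 genes. Of 23 heme and iron genes 2 rose, the iron exporter Slc40a1 (0.33) and Hmox1 (0.37), calls lost with equal array medians, and 3 fell, among them Slc11a2 (0.46 lower). Of 30 cell cycle genes Ccnd2 rose by 1.00 from below the level used for testing, a call lost without well 4 at 24 h (limma adjusted p up to 0.0804), and Tk1 fell by 0.37. Of 16 circadian clock genes none passed by limma, with 1 at an unadjusted p under 0.05 in the 3000 µM wells and 4 in the vehicle wells.

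The difference of the time changes, 3000 µM minus vehicle, was tested directly. It passed for 686 probe sets (4.13%), 229 positive and 457 negative, and 454 of them had changed at 3000 µM. With arrays scaled to equal medians, 18.1% of the passing differences were positive, against 33.4% as deposited. The largest positive differences were those of Gsg1 (1.70), Mylk2 (1.29), Pyroxd2 (1.251), Sfn (1.16), Rsad2 (0.97), Ypel2 (0.97), Sult2b1 (0.95) and Ube4a (0.89). Of these, Sfn passed in every one of the 30 or 31 other settings tried for each gene, while Gsg1 was lost in 1, Pyroxd2 in 7, Mylk2 in 14, Rsad2 in 15, Ypel2 in 16, Sult2b1 in 17 and Ube4a in 22. The largest negative differences were those of Nfe2 (-3.01), Phf19 (-2.07), Steap4 (-1.62), Chd6 (-1.39), Egr2 (-1.35), Rps6kb1 (-1.31), Scd2 (-1.28) and Mtrf1 (-1.26). Nfe2, Steap4, Egr2 and Rps6kb1 passed in every setting tried, while Scd2 was lost in 1, Phf19 in 9, Chd6 in 23 and Mtrf1 in 21. Nfe2, Phf19, Chd6, Egr2 and Rps6kb1 had means below the level used for testing at 48 h at 3000 µM, and Nfe2 in vehicle at both times, so that the sizes and order of these differences are imprecise. Gsg1, Pyroxd2 and Sult2b1 had means below it at 24 h at 3000 µM.

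Egr2, an immediate early transcription factor, had 8.32, 8.89, 8.38, 8.44 and 8.23 at 48 h, against 8.47 to 9.003 at 24 h at 3000 µM, a change of -0.34 that did not pass. In vehicle it had 9.56, 9.39, 9.84, 10.20 and 10.13 at 48 h, against 8.24 to 9.04 at 24 h, and rose by 1.00. Rps6kb1, the S6 kinase of the mTOR pathway, fell by 1.02 at 3000 µM on one probe set, whereas another probe set of the gene had a change of -0.11 that did not pass. Scd2, a stearoyl-CoA desaturase, rose by 1.04 in vehicle, and its 3000 µM change of -0.23 did not pass. Foxa3, a liver transcription factor, had a difference of -0.98, with 3000 µM wells 1.29 below vehicle at 48 h.

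Against the wells with 300 µM, the time change at 3000 µM differed for 124 probe sets (0.746%), 37 positive and 87 negative. Of the genes named above, Steap4 and Sfn passed this test as well (limma adjusted p = 0.00179 and 0.00212), as did Il1r1 and Sdf2l1 (both 0.00168), Egr2 (0.00168), Lcat (0.00334), Rsad2 (0.00773) and Ddit3 (0.00884). The test was also passed by Pdk4 (0.00149), Khk (0.0159), C8g (0.0178), Ccn2 (0.034) and Ccng1 (0.0463). The 300 µM changes were 0.01 (Pdk4), -0.14 (Khk), -0.29 (C8g), 0.04 (Ccn2) and -0.01 (Ccng1) for the last 5 genes, and for the others 0.01 (Steap4), 0.76 (Sfn), -0.35 (Il1r1), 0.01 (Sdf2l1), 1.23 (Egr2), -0.41 (Lcat), 0.42 (Rsad2) and 0.41 (Ddit3) on the log2 scale. Comparisons with vehicle and with 300 µM share the 3000 µM wells. Not every gene had probe sets that moved alike: further probe sets of Hsd17b7 (-0.30), Sesn2 (0.11), Wars1 (0.04), Nr2f2 (0.11), Slc11a2 (0.33), Pyroxd2 (0.18) and Rup2 (0.38) had changes between 48 h and 24 h that did not pass. The same held for further probe sets of Ube4a (-0.11, -0.17 and -0.22), Scd2 (-0.003) and Sult2b1 (0.08). A further probe set of Cebpa (-0.08) did not pass either, while others of that gene fell by 0.565 and 0.40.

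Markers of other cells were checked, beside shares over all 9841 genes of 7.48% higher and 8.61% lower at 3000 µM. Of 6 tested stellate cell and fibroblast markers 1, Rgs5, fell, and of 11 macrophage markers Cd14 and Lyz2 fell by 0.24 and 0.26. Cd14 and Lyz2 fell in vehicle as well, by 0.49 and 0.35. Of 4 cholangiocyte markers 1, Ggt1, rose by 0.67, and by 0.52 in vehicle. None of 5 endothelial and 5 lymphocyte markers passed by limma, with 1 and 0 at an unadjusted p under 0.05. Summed signals were 3800 to 4520 at 48 h against 3288 to 4202 at 24 h for the stellate and fibroblast list, 24233 to 27403 against 27706 to 30009 for macrophages, and 5595 to 6782 against 4216 to 5565 for endothelial cells. They were 14569 to 15348 against 12693 to 13912 for cholangiocytes and 3517 to 4543 against 3067 to 3693 for lymphocytes. Vehicle wells had 21348 to 25125 at 48 h against 29446 to 30882 at 24 h for macrophages. For cholangiocytes they had 15041 to 16321 against 12573 to 13821. For the stellate, endothelial and lymphocyte lists they had 4438 to 5376 against 4070 to 5437, 3795 to 4857 against 3000 to 4182, and 3479 to 4193 against 2967 to 3921. Thbd, an endothelial marker, had mean signals of 3599 at 48 h and 1755 at 24 h, the largest part of the endothelial sum at each time. The other endothelial markers above the level of 383 were not higher at 48 h. Egfl7, Eng and Kdr had 576, 569 and 467 at 48 h, against 595, 594 and 536 at 24 h. The higher endothelial sum at 48 h thus rested on Thbd. Thbd had log2 signals of 11.86, 11.84, 11.53, 11.79 and 12.04 at 48 h, against 10.25, 10.80, 10.79, 10.79 and 11.26 at 24 h, and did not pass although the wells did not overlap (limma adjusted p = 0.194). With the spread estimated from the compared groups alone it passed (limma adjusted p = 0.000748), and against vehicle it was 5.46 higher at 48 h and 5.02 higher at 24 h on the log2 scale. At 48 h, 3 of 14 stellate and fibroblast markers on the array, 8 of 15 macrophage, 4 of 14 endothelial, 4 of 10 cholangiocyte and 4 of 14 lymphocyte markers had a mean signal at or above the level of 383, against 4, 8, 4, 4 and 3 at 24 h. The brightest at 48 h were Cd14 (11260) and Lyz2 (8777) of the macrophage list, Epcam (10330) of the cholangiocyte list, Acta2 (943) of the stellate list and Klrb1a (761) of the lymphocyte list. Pecam1, Krt19, Cd3d, Lum and Cd163 lay under the level, with mean signals of 60.1, 138, 13.9, 24.9 and 85.2. The lower macrophage sum at 48 h rested on Cd14 and Lyz2, which had 13340 and 10520 at 24 h. Of the others above the level at 48 h, Clec4f was lower (429 against 547). Cd68 (1568 against 1106), Aif1, Fcer1g, Mrc1 and Csf1r were higher. Epcam, with 9728 at 24 h, was the largest part of the cholangiocyte sum, and Ggt1 had 1567 against 982. The part of other cells in the results above was not tested.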

How the data were processed

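Affymetrix rat expression arrays were read in 30 wells, 5 in each of 6 groups. The authors deposited linear signal intensities per probe set from MAS5, per the submitters' processing notes, and the deposited values have an equal trimmed mean on all arrays. Replicates were numbered in accession order. The intensities were taken as log2, probe sets under a log2 level of 8.58 in all 6 group means were left out, and 6 group means were fitted with limma 3.58.1 in R 4.3.3 (trend and robust eBayes, 2-sided, Benjamini-Hochberg, adjusted p under 0.05). In data simulated for the comparison of 48 h with 24 h, the fit recovered 18%, 58%, 86% and 98% of probe sets changed by the folds 1.25, 1.5, 2 and 4, of 50 each among 16622 probe sets. The simulated noise was normal and independent, with 1 SD per probe set from all 6 groups and no outlying array. The real 3000 µM wells at 48 h varied more (median SD 0.23, against 0.15 at 24 h), so these rates may be too high for this comparison.

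Named were the 15 largest rises and falls without overlapping wells, up to 4 changed members of each of 39 gene lists, the 8 largest differences each way and a fixed set of phenobarbital genes. Other list members were chosen after their values were seen. The members and lists were chosen with earlier results of these data known. Lists held 1152 matched entries, with 1 probe set per gene, that of the highest mean, and are described by counts. Promoters are RefSeq's. The p-values set differences of group means against the spread between wells, estimated from all 6 groups together. Other scalings, filters and left-out wells were tried.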

Additional observations from a re-analysis of the deposited data

Results flagged for a closer look

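A well far from the other 4 of its group, by Dixon's criterion, was found in 26 of 314 sets of 5 wells examined for named genes, and chance gives about 1 in 20. Array 4 at 48 h held 10 of them. It was high for Pfkl (12.063), Tnfrsf1a (12.438), Calr (14.807), Rpl5 (16.302), Flna (11.201), Lamp1 (14.856), Cyp3a23-3a1 (17.145) and Alb (17.509), and low for Psmb8 (12.477) and Chordc1 (12.331), all as log2 signals. The same array had hybridization controls of 14.5744 and a mean correlation with its group of 0.9538. In the vehicle wells at 24 h, array 1 had hybridization controls of 14.1394. Its list mean of cytosolic ribosomal proteins was 15.70, against 15.43 to 15.58 on the other 4 arrays of that group.

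Other wells at 48 h stood apart for single genes. Well 1 was high for Baat (13.048), Cdh1 (12.792) and the Cyp2b2/Cyp2b1 probe set (12.398) and low for Sdf2l1 (12.599), well 2 was low for Psmc3 (13.436) and well 5 low for Ggt1 (10.299). At 24 h, well 1 was high for Naaa (8.161) and Cyp2b2/Cyp2b1 (12.335) and low for Cxcl1 (11.731), and well 2 was high for Akr1b8 (12.119). Well 3 at 24 h was low for Phf19 (8.34) and Pfkp (10.535), well 4 high for Rragd (9.634), Wars1 (11.74) and Cyp3a23-3a1 (16.391), and well 5 low for Igfbp3 (6.325).

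For 42 named genes the time change at 3000 µM differed from that in vehicle by limma's test of the difference. The log2 difference was positive for Gsg1 (1.703), Mylk2 (1.287), Pyroxd2 (1.251), Sfn (1.162), Rsad2 (0.972), Ypel2 (0.969), Sult2b1 (0.946), Ube4a (0.89), Ddit3 (0.828), Sdf2l1 (0.588), Serpina3c (0.575), Ppp1r15a (0.555) and Pdk4 (0.422). It was smaller and positive for the ribosomal protein genes Rpl19 (0.349), Rpl34 (0.296), Rpl5 (0.291) and Rpl22 (0.227), and for Mat2b (0.299), Atp5f1a (0.277) and Ndufa6 (0.276). The ribosomal calls were lost in 3 (Rpl19), 16 (Rpl34), 21 (Rpl5) and 23 (Rpl22) of 31 other settings.

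The difference was negative for Nfe2 (-3.01), Phf19 (-2.069), Steap4 (-1.624), Chd6 (-1.393), Egr2 (-1.348), Rps6kb1 (-1.306), Scd2 (-1.278), Mtrf1 (-1.263), Foxa3 (-0.982), Il1r1 (-0.908) and Cyp2c12 (-0.798). It was also negative for the sterol genes Hsd17b7 (-0.66), Mvd (-0.588) and Idi1 (-0.524), and for Ftcd (-0.586), Tfrc (-0.541), C9 (-0.521), Elovl6 (-0.482), Fabp1 (-0.458), Nr2f2 (-0.418), C8g (-0.378) and Lcat (-0.37). Of the 42, 13 passed in every other setting tried.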

How the results depend on the processing

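Of 146 named genes with a change between 48 h and 24 h, 103 passed in each of the 20 or 21 other settings tried for them, and none reversed. Of 39 lists, 30 kept the sum of rises and falls within 1.5 times, and 13 kept rises and falls each within 1.5 times, with equal array medians, quantile normalization and without array 4 at 48 h. The comparison at 3000 µM gave 1186 changed probe sets with the spread estimated from the compared groups alone, against 2317, and 1883 to 2581 with single wells left out. The difference from vehicle, 686 as reported, gave 362 with no filter, 232 with equal array medians and 319 with the compared groups alone. Leaving out single wells gave 410 to 975, with 410 without 3000 µM 24 h well 1, 428 without well 4 of that group, 441 and 418 without vehicle 48 h wells 1 and 3, and 437 without vehicle 24 h well 2. Of the arrays that stood apart, leaving out array 4 of the 3000 µM wells at 48 h gave 788, with 38.1% positive. Leaving out array 1 of the vehicle wells at 24 h gave 488, of which 454 were among the 686. The difference from 300 µM, 124 as reported, gave 71 with no filter, 36 with equal array medians, 69 with the compared groups alone and 82 without trend and robust estimation. Leaving out single 3000 µM wells gave 71 to 301, with 301 without 3000 µM 48 h well 1 and 71, 81 and 80 without 3000 µM 24 h wells 1, 4 and 5. The cause was not tested. The labels do not pair wells across groups. Sets of 6 consecutive running numbers in the titles, used as a block, gave 2283 changed probe sets at 3000 µM, 609 for the difference from vehicle and 121 for that from 300 µM. Signals near the testing level limit the precision of the largest rises and of part of the largest falls.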
